A study of Homo sapiens with 4 samples.

Results

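Hub regions are stretches of acetylated chromatin that were joined to many other acetylated stretches in the same cells. H3K27ac HiChIP records pairs of DNA ends that lay close together in fixed nuclei and carried histone H3 acetylated at lysine 27, and each recorded pair is a paired-end tag (PET). Anchors, the listed end regions of these contacts, were merged where they overlapped in any of the 4 libraries, and 2 merged regions counted as linked when 4 or more PETs joined them. A region with 10 or more different partner regions in at least 1 library was taken as a hub. This rule gave 3033 hub regions among 79742 merged regions, 3.80% of all and 6.68% of the 45388 regions with any partner. The partner numbers chose the members, so those numbers describe the hubs and are not evidence for them.

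All libraries come from IMR90 cells, a human diploid fibroblast line from embryonic lung, grown under low oxygen. Senescence, a lasting arrest of division, was brought on by an inducible fusion of the estrogen receptor with an oncogenic H-RAS, and the labels do not say whether the control cells carry this fusion. The groups are senescent cells with a short hairpin against METTL3 (shMETTL3), senescent cells with a hairpin against METTL14 (shMETTL14), senescent cells with a control hairpin (shcontrol), and control cells, whose genotype label reads WT and names no hairpin. The protocol text has METTL4 in place of METTL14, and the group follows the genotype label. Each group is 1 library, so no difference below has a replicate check, no test over samples was possible, and every interval covers counting error only. The depletion of METTL3 or METTL14 was not measured in these files.

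H3K27ac marks active promoters and enhancers, and a single promoter can contact several enhancers while a single enhancer can contact several promoters. Regions with many contacts are often broad acetylated domains near genes that define a cell's identity or its response to a signal. METTL3, the catalytic subunit, and METTL14, which helps it to bind RNA, together place the m6A methyl mark on transcripts. Genes are not named for the hubs here, since the gene table at hand is on another genome build than the hg19 positions of the files. The hubs are therefore described by position, size and contacts.

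The number of hubs followed the depth of the library. The shMETTL3 library held 919 hubs from 623930 PETs, shMETTL14 1881 from 936492, shcontrol 766 from 552029 and control 2058 from 998378. After every library had been drawn down to 552029 PETs, shMETTL3 held 734 hubs, shMETTL14 665, shcontrol 766 and control 656. Hubs then made up 3.40% of the regions with a partner in shMETTL3, 3.07% in shMETTL14, 3.60% in shcontrol and 3.12% in control. At equal PETs 57 regions in shMETTL3, 54 in shMETTL14, 63 in shcontrol and 40 in control reached 20 or more partners, and the highest number lay between 32 and 34 in every library. In all, 1327 of the 3033 hubs kept 10 or more partners in at least 1 library at equal PETs. Unless stated otherwise, partner numbers below are at equal PETs.

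**Figure D1:**
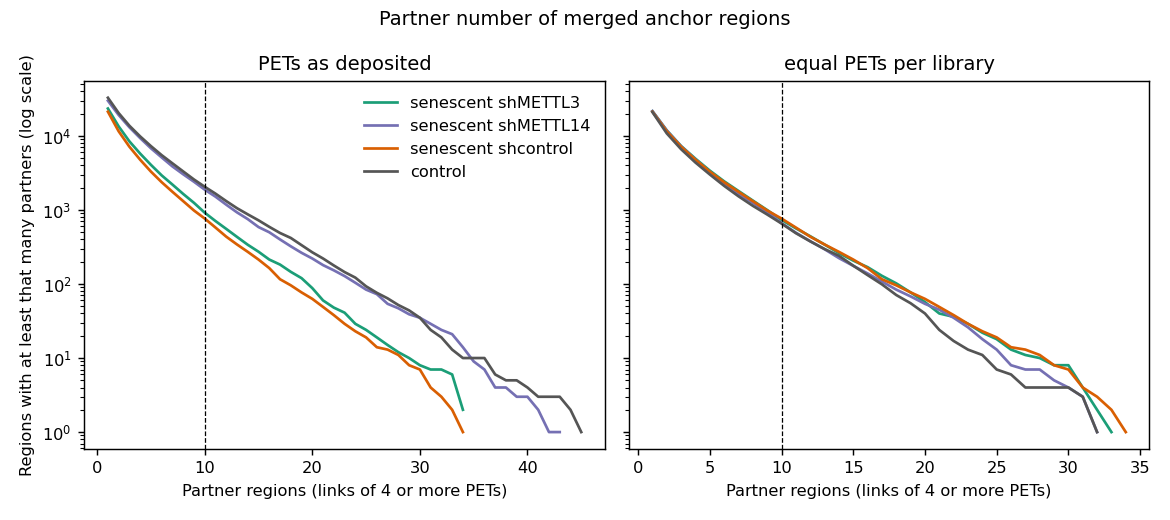
Number of merged regions (y axis, log scale) with at least the number of partners on the x axis, for PETs as deposited on the left and for 552029 PETs per library on the right, with 1 line per library and a dashed line at 10 partners. The lines of shMETTL14 and control lie above the others as deposited, with 1881 and 2058 hubs, while at equal PETs all 4 libraries cross the dashed line between 656 and 766 regions.

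Membership shades off without a gap at the threshold. A highest partner number of exactly 10 was found for 564 members, and 804 regions just missed the rule with 9 partners. With PETs as deposited, 422 regions were hubs in all 4 libraries, 376 in 3, 573 in 2 and 1662 in a single library, of which 1059 were hubs in the deepest library, control, and 553 in shMETTL14. At equal PETs 236 regions were hubs in all 4 libraries. A further 207 were hubs in the 3 senescent libraries and not in control, and 272 were hubs in control alone. Hubs of shMETTL3 alone numbered 120, of shMETTL14 alone 68 and of shcontrol alone 118. Hubs also lay side by side. Chained over gaps of up to 50 kb, the members formed 1640 loci, of which 1090 held 1 hub region, 97 held 5 or more and 24 held 10 or more.

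The 5 hubs with the highest lowest partner number over the libraries, as deposited, lay on chromosomes 12, 10 and 1, with 3 of the 5 on chromosome 12. The region on chromosome 12 from 76321315 to 76355332 had 33 partners in shMETTL3, 28 in shMETTL14, 33 in shcontrol and 24 in control. Its neighbour from 76408003 to 76435171 had 32 in shMETTL3, 26 in shMETTL14, 32 in shcontrol and 31 in control, and these hubs were joined to each other, 83.3 kb apart, by 98 PETs as deposited in shMETTL3, 148 in shMETTL14, 115 in shcontrol and 100 in control. The third, from 76076226 to 76109274, had 28, 29 and 30 partners in the shMETTL3, shMETTL14 and shcontrol libraries and 19 in control. All 3 had 26 or more partners in each senescent library, and the first and the third were lowest in control.

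On chromosome 10 from 4687921 to 4736032 the partner numbers were nearly level, with 30 in shMETTL3, 32 in shMETTL14, 30 in shcontrol and 30 in control. This hub reached far: its links had a median span of 583 kb in shMETTL3, 732 kb in shMETTL14, 655 kb in shcontrol and 631 kb in control, and its farthest partner lay 1569 kb away in each library. With 43 partners as deposited in shMETTL14 and 45 in control it led both of these libraries. The region on chromosome 1 from 235089659 to 235127191 had 30 partners in shMETTL3, 25 in shMETTL14, 28 in shcontrol and 26 in control, and its strongest partner by PETs per 1000000 summed over the libraries, 362 kb away, was joined to it by 89 PETs as deposited in shMETTL3, 115 in shMETTL14, 89 in shcontrol and 128 in control.

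Other regions were among the 5 with most partners in at least 1 library as deposited. On chromosome 3, the region from 187972562 to 188018746 had 31 partners in shMETTL3, 31 in shMETTL14, 25 in shcontrol and 32 in control. The region on chromosome 11 from 128316681 to 128397676 had 30 in shMETTL3, 31 in shMETTL14, 28 in shcontrol and 22 in control. A pair of broad regions on chromosome 11 was high in control: the one from 12690357 to 12729572 had 11, 11 and 14 partners in the shMETTL3, shMETTL14 and shcontrol libraries against 31 in control, and the one from 12129379 to 12210449 had 12, 17 and 16 against 24. On chromosome 8, the region from 127832727 to 127854488 had 31 partners in shcontrol, above the 19 in shMETTL3, the 20 in shMETTL14 and the 8 in control.

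The largest hub locus was the chromosome 12 stretch from 75871016 to 76481101, with 30 hub regions in 610 kb. Of the 435 pairs these regions can form, 184 were linked in shMETTL3, 171 in shMETTL14, 171 in shcontrol and 125 in control, with 3607 PETs at equal depth in shMETTL3, 2912 in shMETTL14, 3456 in shcontrol and 1595 in control. This locus thus held more links in each senescent library than in control. The locus on chromosome 19 from 43260530 to 43711578 held 20 hub regions, of which 14 in shMETTL3, 14 in shMETTL14, 15 in shcontrol and 7 in control had 10 or more partners. The other locus of 20 hub regions, on chromosome 2 from 46915538 to 47503082, leaned the other way, with 1, 2 and 3 such regions in the shMETTL3, shMETTL14 and shcontrol libraries against 7 in control. On chromosome 1 from 94990558 to 95272869, 15 hub regions were counted, and 7 in shMETTL3, 1 in shMETTL14, 7 in shcontrol and 5 in control had 10 or more partners. The shMETTL14 library thus stood apart at this locus, where 400 PETs at equal depth in shMETTL3, 275 in shMETTL14, 486 in shcontrol and 537 in control joined the hubs to each other. A locus of 13 hub regions on chromosome 5, from 172139308 to 172388282, had 6, 9 and 7 such regions in the shMETTL3, shMETTL14 and shcontrol libraries and 0 in control.

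Hubs were broad. Merged hub regions had a median width of 13.4 kb (quartiles 9.63 and 19.5 kb, n = 3033), against 4.45 kb (3.19 and 6.49 kb) for the 42355 other regions with a partner. Counted as the length that a library's own anchors cover, hubs at equal PETs had a median of 15.6 kb in shMETTL3, 16.7 kb in shMETTL14, 15.5 kb in shcontrol and 20.7 kb in control, and other regions with a partner had 4.66 kb in shMETTL3, 4.71 kb in shMETTL14, 4.72 kb in shcontrol and 5.68 kb in control. Of the regions that anchors cover for under 5 kb, 10 of 38542 were hubs in shMETTL3, 5 in shMETTL14 and 7 in shcontrol, and 1 of 46204 in control. Among those covered for 20 to 40 kb the share was 54.3% in shMETTL3, 55.1% in shMETTL14, 57.9% in shcontrol and 40.5% in control. A broad region has more room for PETs and partners, so width and partner number are not separate measures. Per covered kb, hubs still had more partners than other regions with a partner, with medians of 0.829 and 0.381 in shMETTL3, 0.80 and 0.375 in shMETTL14, 0.820 and 0.373 in shcontrol and 0.626 and 0.301 in control. The choice of hubs by partner number raises this value too.

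**Figure D2:**
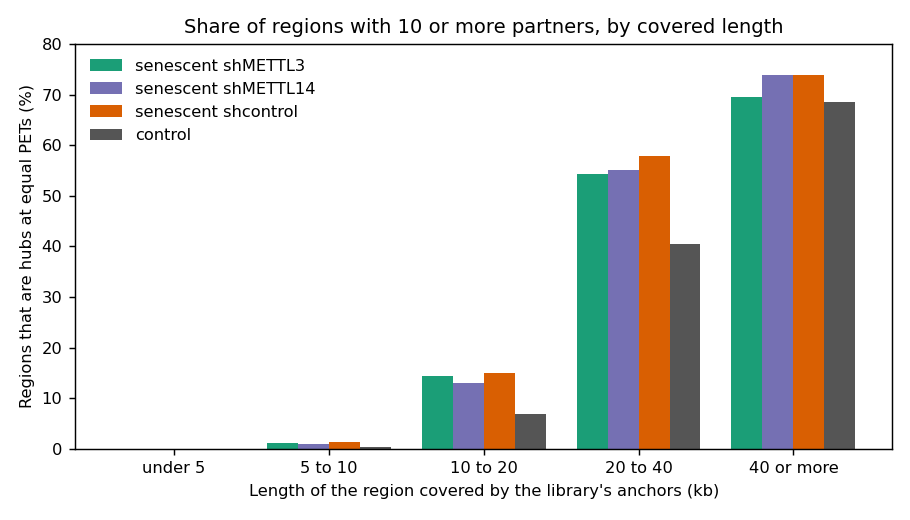
Share of regions with 10 or more partners at equal PETs (y axis, %) by the length of the region that the library's anchors cover (x axis, kb), 1 bar per library. From 20 to 40 kb the bars reach 54.3% in shMETTL3, 55.1% in shMETTL14, 57.9% in shcontrol and 40.5% in control, against 0.0259% or less under 5 kb.

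Links of hubs also spanned longer distances than other links. The span, measured between region midpoints, had a median of 102 kb for hub links and 28.9 kb for other links in shMETTL3, 107 and 29.5 kb in shMETTL14, 112 and 31.0 kb in shcontrol, and 100.5 and 28.0 kb in control. With links held to a false discovery rate of 0.01 or less the hub medians were 159 kb in shMETTL3, 166 kb in shMETTL14, 182 kb in shcontrol and 132 kb in control. Links of 500 kb or more made up 6.20% of hub links in shMETTL3, 7.67% in shMETTL14, 7.46% in shcontrol and 5.50% in control, but 0.922 to 1.53% of the other links. Of all links of 500 kb or more, 72.9% in shMETTL3, 64.4% in shMETTL14, 73.1% in shcontrol and 68.4% in control had a hub at an end. Over links of any span this share was 28.6% in shMETTL3, 26.6% in shMETTL14, 30.4% in shcontrol and 28.3% in control. The stretch from a hub's lowest to its highest partner, the reach, had a median of 576.5 kb in shMETTL3, 623 kb in shMETTL14, 632 kb in shcontrol and 546 kb in control. It was 1 Mb or more for 146 hubs in shMETTL3, 171 in shMETTL14, 189 in shcontrol and 109 in control. Hubs were chosen by partner number, so span and reach are not separate from that choice. With a threshold of 8 partners the median span of hub links was 86.8 kb in shMETTL3 and 88.2 kb in shMETTL14. In shcontrol it was then 95.4 kb and in control 85.4 kb. The part of the choice in the longer spans was not tested.

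**Figure D3:**
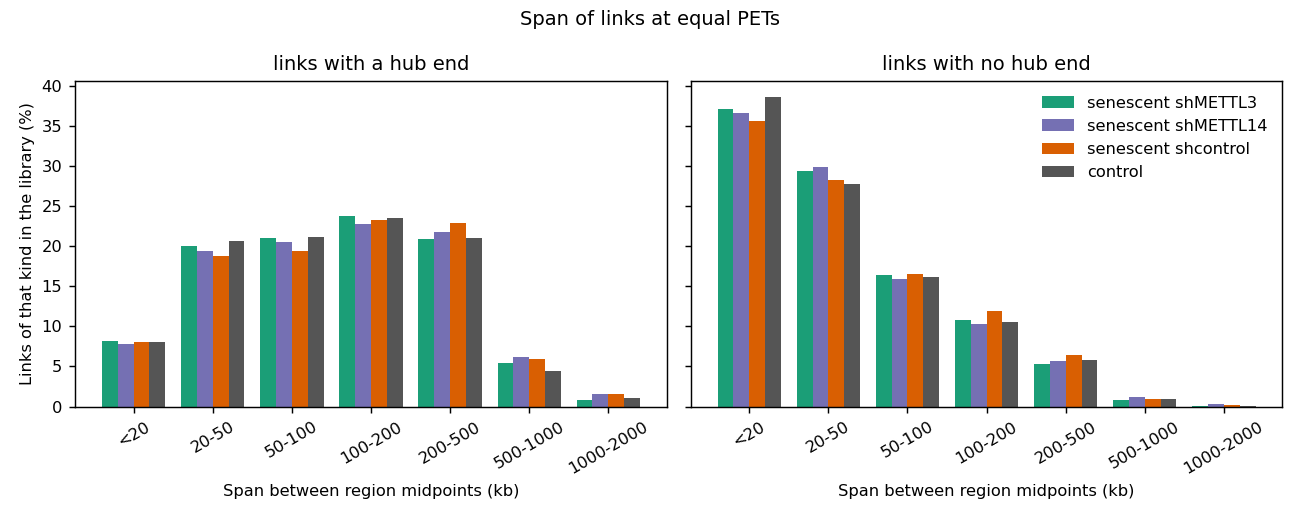
Share of links (y axis, %) by span (x axis, kb) at equal PETs, for links with a hub at an end on the left and all other links on the right, 1 bar per library. Hub links peak at 100 to 200 kb in every library, while other links are most frequent under 20 kb. The median span is 112 against 31.0 kb in shcontrol.

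Few hubs faced only 1 way along the chromosome. All partners lay on the same side for 13 hubs in shMETTL3, 14 in shMETTL14, 17 in shcontrol and 14 in control, and 80% or more lay on 1 side for 23.0% of hubs in shMETTL3, 23.9% in shMETTL14, 24.4% in shcontrol and 22.9% in control. Hubs were joined to each other by 1457 links in shMETTL3, 1162 in shMETTL14, 1447 in shcontrol and 956 in control. Of all links with a hub end these made up 17.3% in shMETTL3, 15.1% in shMETTL14, 16.5% in shcontrol and 12.5% in control. These links between hubs were long, with a median span of 142 kb in shMETTL3, 149 kb in shMETTL14, 156 kb in shcontrol and 162 kb in control. As deposited, 48.3% of all PETs in shMETTL3, 46.8% in shMETTL14, 48.0% in shcontrol and 42.3% in control had an end in a member. The deposited q-value, read as a false discovery rate, was 0.01 or less for 74.2% of hub links in shMETTL3, 75.4% in shMETTL14, 72.6% in shcontrol and 85.6% in control, against 33.0% of the other links in shMETTL3, 37.3% in shMETTL14, 33.4% in shcontrol and 51.0% in control. Hub links also had more PETs, with a median of 7 against 5 in each library. PETs also decide partner numbers, so these values describe the chosen hubs and are not separate traits of them. The q-values come from the full libraries, which differ in depth.

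Hubs lay on each of chromosomes 1 to 22 and X, in unequal shares. They made up 9.44% of the regions with a partner on chromosome 8 (219 of 2320), 8.99% on chromosome 5 and 8.35% on chromosome 2, against 3.73% on chromosome 16 and 1.39% on chromosome X. On chromosome 16 control had more hubs, with 9 in shMETTL3, 5 in shMETTL14, 12 in shcontrol and 21 in control. On chromosome 4 the numbers were 18, 21 and 36 in the shMETTL3, shMETTL14 and shcontrol libraries and 17 in control, so shcontrol alone was high there.

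In senescent shcontrol against control, a large part of the hubs differed. At equal PETs 333 hubs were kept, which is 43.5% of the shcontrol hubs and 50.8% of the control hubs. Another 433 regions were hubs in shcontrol only, 1.44% of the 30030 regions with a partner in either library, and 323 were hubs in control only (1.08%). Many of these differences were large: 252 of the 433 gained hubs had 5 or fewer partners in control, and 143 of the 323 lost hubs had 5 or fewer in shcontrol. As loci, 254 were kept, 245 gained and 214 lost. With PETs as deposited the balance turned, with 236 gained and 1528 lost, and control is the deeper library. It also turned among links with a false discovery rate of 0.01 or less, with 195 gained and 275 lost. That rate is the one of the full libraries, so this setting did not hold depth equal.

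The anchors of the compared libraries differ, and this moved with the result. The senescent libraries share a set of 55317 anchors and control has its own set of 66743. The senescent anchors covered 1.12 times the control length at gained hubs (median over the 392 with anchors of both sets), 0.872 times at kept hubs and 0.565 times at lost hubs. Of the gained hubs, 41 held no control anchor, and 5 of the lost hubs held no senescent anchor. Among regions where the longer covered length was at most 25% above the shorter, an alternative added after the data had been seen, 209 hubs were kept, 207 gained and 52 lost. Among the 94 members covered by 1 identical anchor in either set, 12 were kept, 15 gained and 3 lost. Beyond these values the part of the anchor sets in the result was not tested, and anchor set and group cannot be told apart elsewhere.

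**Figure D4:**
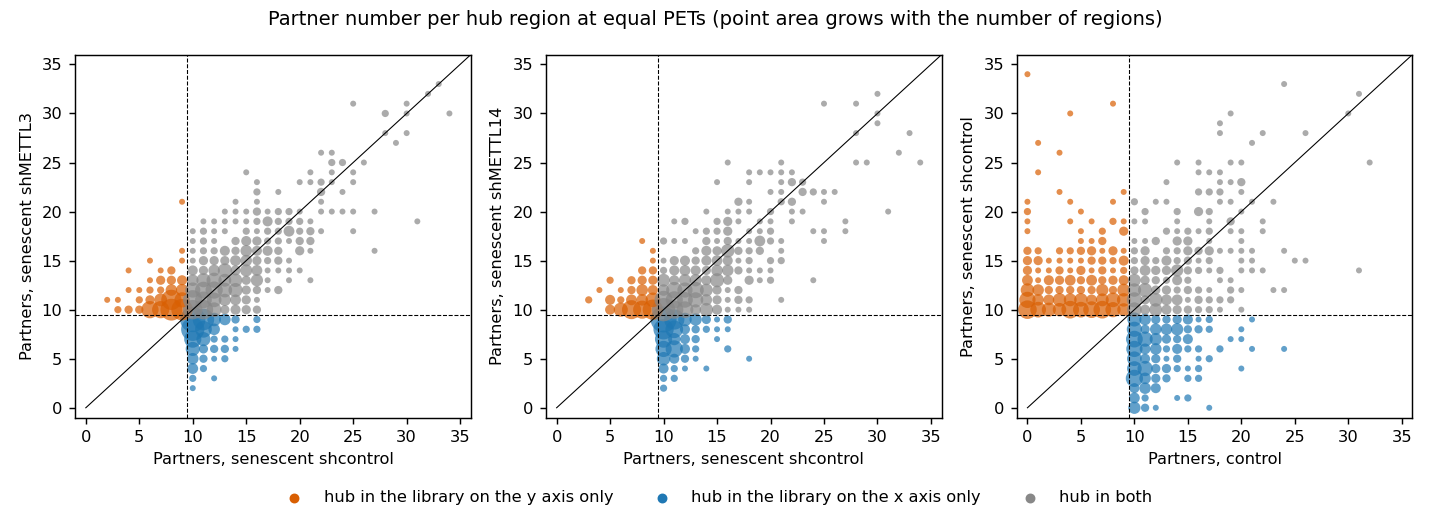
Partner number of each hub region at equal PETs, shMETTL3 against shcontrol on the left, shMETTL14 against shcontrol in the middle and shcontrol against control on the right, with the first library on the y axis. Point area grows with the number of regions, dashed lines mark the threshold, and colours separate hubs of both libraries from hubs of a single one. The right panel scatters widely, with 433 gained and 323 lost regions and several at 0 partners in control, while the points of the other panels stay near the diagonal.

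The gained hub with the largest difference lay on chromosome 20 from 49940600 to 49989505. It had 34 partners in shcontrol, the most of any region in that library, and 0 in control. No control anchor lies in these 48.9 kb, and the nearest one is 8.95 kb away, so its 0 partners in control follow from the anchor set. The other senescent libraries had 30 partners (shMETTL3) and 25 (shMETTL14) there.

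On chromosome 4 the region from 74582038 to 74608665 had 27 partners in shcontrol and 1 in control, or 27 and 5 as deposited. It held 514 and 113 PETs as deposited, an 8.23-fold share of the library (95% interval 6.70 to 10.2). Senescent anchors cover 26.6 kb of it and control anchors 19.3 kb. Its links in shcontrol had a median span of 173 kb, while its single partner in control lay 23.8 kb away. Both knockdown libraries had fewer partners there than shcontrol, with 16 in shMETTL3 and 18 in shMETTL14, and still more than control. As deposited there were 19 partners from 296 PETs in shMETTL3 and 28 from 614 in shMETTL14. The share of PETs was 0.510 of that in shcontrol (0.440 to 0.589) for shMETTL3 and 0.704 (0.625 to 0.793) for shMETTL14.

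The region on chromosome 6 from 106033306 to 106066993 had 30 partners in shcontrol and 4 in control, with 395 and 127 PETs as deposited, a 5.63-fold share (4.59 to 6.93). Senescent anchors cover 33.7 kb of it and control anchors 24.5 kb. Its difference of 26 partners was 17 when only partners with anchors of both sets were counted. The knockdown libraries lay close to shcontrol there, with 31 partners in shMETTL3 and 30 in shMETTL14. By the same sum, its strongest partner lay 490 kb away at 106528874 to 106552323 and was joined by 24 PETs as deposited in shMETTL3, 35 in shMETTL14, 26 in shcontrol and 15 in control, although in shMETTL3 a partner 178 kb away had 34. On chromosome 12, the region from 89614530 to 89649199 had 26 partners in shcontrol and 3 in control, a 9.70-fold share of PETs (7.99 to 11.9), where senescent anchors cover 34.7 kb and control anchors 17.7 kb. In the knockdown libraries it had 25 partners (shMETTL3) and 22 (shMETTL14). The chromosome 8 region from 127867145 to 127884467 had 24 partners in shcontrol and 1 in control, a 13.8-fold share of PETs (9.84 to 19.8), with 17.3 against 5.72 kb covered. It was joined to the chromosome 8 hub named above, 32.2 kb away, by 87 PETs as deposited in shMETTL3, 81 in shMETTL14, 72 in shcontrol and 15 in control. It had 20 partners in shMETTL3 and 13 in shMETTL14, the lowest of the senescent libraries.

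**Figure D5:**
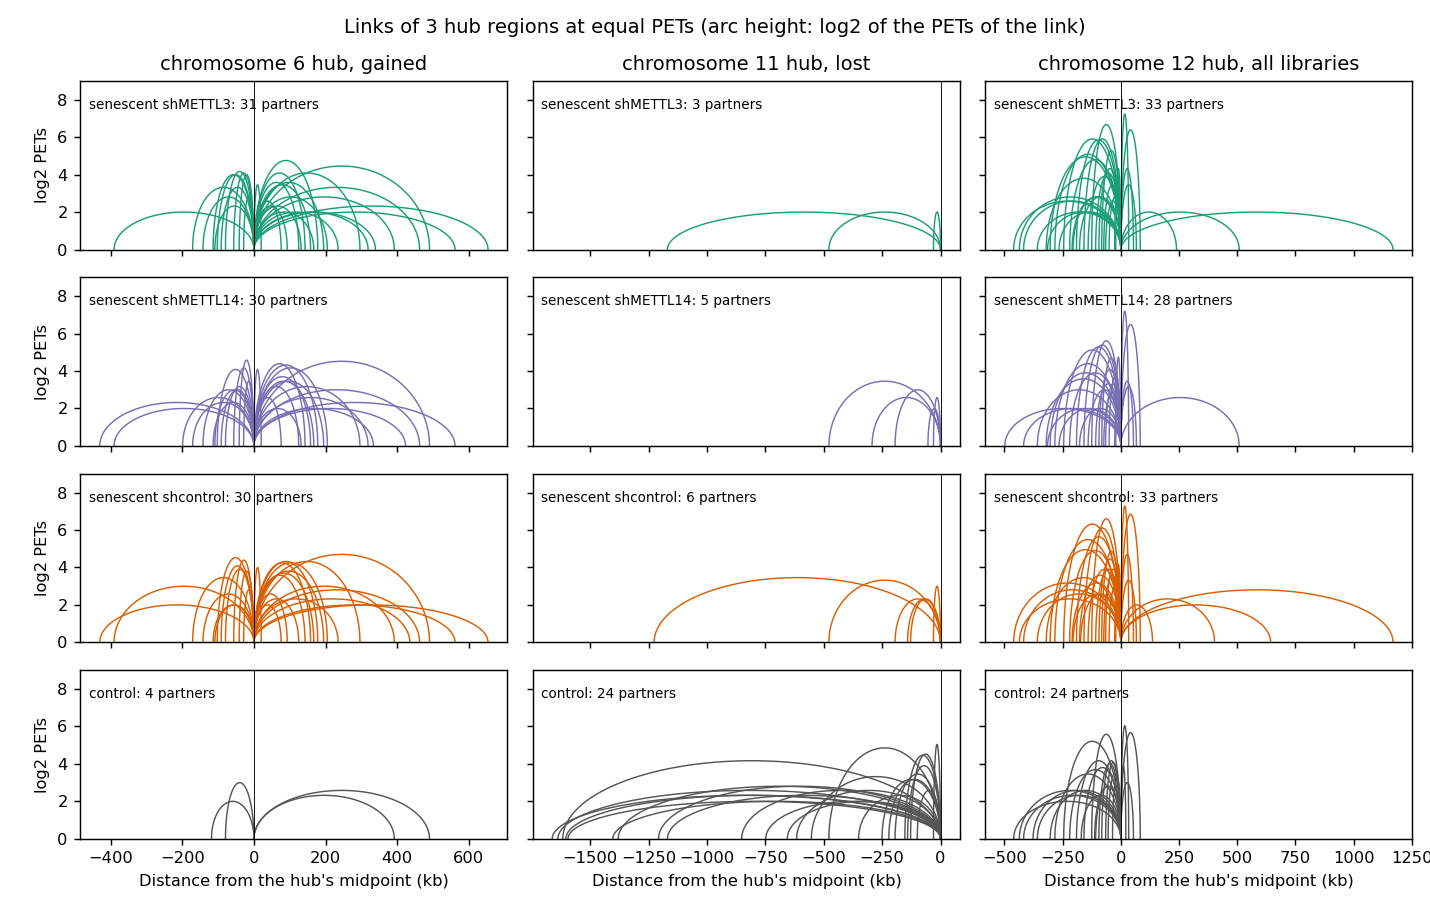
Links of 3 hub regions at equal PETs, from the hub's midpoint at 0 (x axis, kb) to each partner, with arc height as the log2 of the PETs of the link, in rows for shMETTL3, shMETTL14, shcontrol and control. The gained chromosome 6 hub has 31, 30 and 30 partners in the senescent libraries and 4 in control. The lost chromosome 11 hub has 3, 5 and 6 against 24, which all lie to its left, and the chromosome 12 hub keeps 33, 28 and 33 against 24.

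Among lost hubs the largest difference, in the draw of PETs used here, was on chromosome 11 from 29312375 to 29360175, with 6 partners in shcontrol and 24 in control. In a second draw the difference was -16, behind -18 and -17 for the regions on chromosomes 4 and 15 described below. Its share of PETs in shcontrol was 0.312 of that in control (0.249 to 0.388), and senescent anchors cover 18.6 kb of it against 47.8 kb for control. In control its links had a median span of 636 kb and reached 1662 kb, all toward lower positions. The knockdown libraries were low as well, with 3 partners in shMETTL3 and 5 in shMETTL14. The chromosome 12 region from 66036534 to 66071063 had 17 partners in control and holds no senescent anchor, the nearest of which is 2.34 kb away.

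The chromosome 15 region from 39182973 to 39192984 had 4 partners in shcontrol and 20 in control, a PET ratio of 0.204 (0.153 to 0.268), with 6.75 against 10.0 kb covered. On chromosome 4 from 169751334 to 169792600 there were 6 partners in shcontrol and 21 in control (PET ratio 0.366, 0.291 to 0.458), with 15.1 against 41.3 kb covered. The chromosome 6 region from 26267357 to 26277413 had 1 partner in shcontrol and 15 in control, and its PET ratio was 0.199 (0.129 to 0.294), with 1.92 against 10.1 kb covered. In each of these regions both knockdown libraries stood with shcontrol, at 0 to 7 partners.

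The libraries that took no part in the choice gave a second reading of these hubs. At the 433 gained hubs, chosen from shcontrol and control, the median partner number was 11 in shMETTL3 (quartiles 8 and 13) and 10 in shMETTL14 (8 and 13), beside 11 in shcontrol and 5 in control. In shMETTL3 273 of them (63.0%) had 10 or more partners, and in shMETTL14 249 (57.5%). At the 323 lost hubs the medians were 5 in shMETTL3, 5 in shMETTL14 and 6 in shcontrol, against 11 in control, and 25 (7.74%) were hubs in shMETTL3 and 35 (10.8%) in shMETTL14. The senescent libraries share their anchors, so this reading does not separate senescence from the anchor set.

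At the cut of 4 PETs per link, kept hubs shared a part of their partners. Among the 333 kept hubs of shcontrol and control, a median of 66.7% of the shcontrol partners (quartiles 57.1% and 75%) were partners in control too, and 68.8% of the control partners were partners in shcontrol. For the 539 hubs kept between shMETTL3 and shcontrol the medians were 80% of the shMETTL3 partners and 80% of the shcontrol partners. For the 512 kept between shMETTL14 and shcontrol they were 80% of the shMETTL14 partners and 76.9% of the shcontrol partners. Partners found in both libraries lay nearer, with a median span of 109 kb for shcontrol with control, 100.2 kb for shMETTL3 with shcontrol and 99.4 kb for shMETTL14 with shcontrol. Partners of shcontrol not linked in control lay at a median of 186 kb, and those not linked in shMETTL3 at 246 kb. A partner under 4 PETs was often still joined by 1 or more PETs as deposited. This held for 90.4% of the shcontrol partners not linked in shMETTL3 and 96.8% of those not linked in shMETTL14. It held for 71.5% of the shcontrol partners not linked in control, and for 47.3% of the control partners not linked in shcontrol. A partner region without anchors of the other set cannot be shared between shcontrol and control, while the senescent libraries use the same anchors. The PETs as deposited also come from libraries of unlike depth. The part of anchors and depth in these shares was not tested.

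The shMETTL3 library differed far less from shcontrol than shcontrol did from control, and these libraries use the same anchors. At equal PETs 539 hubs were kept, 73.4% of the shMETTL3 hubs and 70.4% of the shcontrol hubs. A further 195 were gained (0.752% of 25930 regions with a partner) and 227 lost (0.875%), most of them close to the threshold: 15 of the 195 had 5 or fewer partners in shcontrol and 25 of the 227 had 5 or fewer in shMETTL3. As loci, 355 were kept, 111 gained and 144 lost. Among the kept hubs 222 had more partners in shMETTL3 and 221 had fewer. The excess of lost over gained hubs turned with 6 PETs per link (96 gained, 74 lost), with a threshold of 8 partners (351 and 327), with a false discovery rate of 0.01 or less (103 and 83) and with PETs as deposited (314 and 161).

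The gained hub with the largest difference in shMETTL3 was on chromosome 6 from 140359835 to 140376762. It had 21 partners in shMETTL3 and 9 in shcontrol, and it held 255 and 142 PETs as deposited, a 1.59-fold share (1.29 to 1.96). Its links had a median span of 193 kb in shMETTL3 and 71.7 kb in shcontrol. The gain of 12 partners was 2 with 6 PETs per link, fewer than the 7 of the next region. The chromosome 21 region from 44911887 to 44924236 had 14 partners in shMETTL3 and 4 in shcontrol, a 2.74-fold share of PETs (2.08 to 3.65). By the summed PETs its strongest partner, 16.8 kb away, was joined by 76 PETs as deposited in shMETTL3, 85 in shMETTL14, 17 in shcontrol and 24 in control, where a partner 108 kb away had 27. Next came chromosome 20 from 48898530 to 48916177, with 15 partners in shMETTL3 and 6 in shcontrol. The remaining pair were chromosome 13 from 51101123 to 51112054, with 11 and 2, and chromosome 12 from 25954721 to 25967517, with 11 and 3. In shMETTL14 these 5 regions had 13, 8, 6, 2 and 6 partners.

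Lost in shMETTL3 with the largest difference, in the draw of PETs used here, was chromosome 3 from 177685357 to 177701637. It had 3 partners in shMETTL3 and 12 in shcontrol (PET ratio 0.571, 0.425 to 0.762). In a second draw its difference was -8, level with the regions on chromosomes 17 and 1 below. With 3 PETs per link it was -6, behind -15 for the chromosome 8 region. Chromosome 17 from 39103414 to 39117869 had 5 and 13 partners (0.624, 0.513 to 0.757). The chromosome 8 region from 128745301 to 128757028 had 8 partners in shMETTL3 and 16 in shcontrol. It was linked over 908 kb to the hub at 127832727 to 127854488 by 13 PETs as deposited in shMETTL3, 23 in shMETTL14, 32 in shcontrol and 20 in control. Chromosome 1 from 182989445 to 183002358 had 5 partners in shMETTL3 and 13 in shcontrol, and chromosome 5 from 172212620 to 172239352 had 8 and 16. In shMETTL14 the partner numbers of these 5 regions were 5, 12, 16, 12 and 15. Other regions with the same difference of 8 partners were left out by the order of their PETs. Of all 227 lost hubs 69 (30.4%) had 10 or more partners in shMETTL14, beside 59 (30.3%) of the 195 gained hubs.

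In shMETTL14 against shcontrol, 512 hubs were kept at equal PETs, 77.0% of the shMETTL14 hubs and 66.8% of the shcontrol hubs. Gained were 153 (0.588% of 26029 regions with a partner) and lost 254 (0.976%), and 15 and 35 of these had 5 or fewer partners in the other library. As loci, 351 were kept, 95 gained and 153 lost. Among the kept hubs 166 had more partners in shMETTL14 and 245 had fewer. With PETs as deposited the counts turned to 1151 gained and 36 lost, since the shMETTL14 library is the deeper one.

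The largest gain in shMETTL14, in the draw of PETs used here, was on chromosome 6 from 141858396 to 141876174, with 17 partners in shMETTL14 and 8 in shcontrol, although its share of PETs was 1.18-fold (0.958 to 1.47), an interval that includes 1. The gain of 9 partners was 5 in a second draw and 4 with 3 or with 6 PETs per link. Its links had a median span of 698 kb in shMETTL14 and 239 kb in shcontrol. On chromosome 12, the region from 66330952 to 66360069 had 11 partners in shMETTL14 and 3 in shcontrol, with 289 and 63 PETs as deposited, a 2.70-fold share (2.05 to 3.61), and its gain of 8 partners was 9 in the second draw. The chromosome 7 region from 40582829 to 40592950 had 12 and 4, and the regions on chromosome 2 from 225953215 to 225975044 and on chromosome 6 from 113949111 to 113958905 had 13 in shMETTL14 and 5 in shcontrol each. In shMETTL3 these 5 regions had 13, 5, 5, 10 and 7 partners.

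The largest loss in shMETTL14, in the draw of PETs used here, was on chromosome 10 from 31602411 to 31613854. This region had 5 partners in shMETTL14 and 18 in shcontrol (PET ratio 0.582, 0.467 to 0.726), where shMETTL3 had 16. Its difference of -13 partners was -9 in a second draw, level with the chromosome 16 region below. With 3 PETs per link it was -12, behind -14 for the chromosome 2 region, and as deposited it was -3. On chromosome 2 the region from 66656409 to 66684667 had 6 partners in shMETTL14 and 16 in shcontrol (0.563, 0.454 to 0.699), and chromosome 6 from 112352969 to 112368551 had 6 and 16 (0.718, 0.578 to 0.893). Chromosome 3 from 66843803 to 66853016, covered by an identical anchor in either set, had 4 partners in shMETTL14 and 14 in shcontrol, with 6 in shMETTL3 and 2 in control. Chromosome 16 from 86519339 to 86555099 had 8 and 16 partners (0.501, 0.428 to 0.587), with 12 in shMETTL3 and 17 in control. With 6 PETs per link the chromosome 3 and chromosome 16 regions differed by -2 each. With 3 PETs per link the chromosome 6 region differed by -3. Both knockdowns were set against the same shcontrol library, so their values share its error.

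Across the same hubs, the median link span was shorter in both knockdown libraries than in shcontrol, as it was for links with no hub end. Links with no hub end had medians of 28.9 kb in shMETTL3, 29.5 kb in shMETTL14 and 31.0 kb in shcontrol. At the 443 regions that were hubs in all 3 senescent libraries, links had a median span of 116 kb in shMETTL3, 116 kb in shMETTL14 and 125 kb in shcontrol. The share of links of 500 kb or more was 7.25% in shMETTL3, 8.35% in shMETTL14 and 8.39% in shcontrol. These hubs had a median of 14 partners in shMETTL3, 13 in shMETTL14 and 14 in shcontrol. At the 236 hubs of all 4 libraries the median span was 124 kb in shMETTL3, 126 kb in shMETTL14, 136 kb in shcontrol and 122 kb in control.

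PETs with an end in a hub were compared with all regions by a size rule: a 2-fold or larger difference in PETs per 1000000, a 95% interval that excludes 1 and 50 or more PETs over both libraries. In shMETTL3 against shcontrol, 18 of 2852 hub regions were higher and 17 lower, 0.631% and 0.596%, beside 1.98% and 1.46% of all 12279 regions tested. For shMETTL14 against shcontrol, 12 of 2906 hub regions were higher and 31 lower, 0.413% and 1.07%, beside 3.04% and 1.49% of all 16168. At equal PETs a hub held a median of 192 PETs in shMETTL3, 185 in shMETTL14 and 181 in shcontrol, and the part of this depth in the shares was not tested. In shcontrol against control 615 of 2887 hub regions with anchors of both sets were higher and 438 lower, 21.3% and 15.2%, beside 15.7% and 15.9% of all 15109. The median log2 ratio was -0.02 in shMETTL3, -0.03 in shMETTL14 and 0.10 in shcontrol over control for hub regions, beside -0.01, 0.02 and 0.00 for all regions tested. Since PETs also decide partner numbers, these shares describe the hubs and support nothing about them.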

How the data were processed

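H3K27ac HiChIP was measured in 4 libraries of IMR90 cells, 1 per group, and groups were taken from the treatment and genotype labels. HiC-Pro (3.1.0) and hg19 come per the submitters' processing notes. Which program called the interactions is not stated in the labels. The authors deposited, for pairs of anchors on 1 chromosome, a raw count of PETs and an unnamed last column, read here as the authors' q-value, a p-value corrected for many tests. Positions count from 0 in the files (508 boundaries of the anchor sets meet, 0 after a shift of 1) and from 1 here.

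Anchors that overlapped by 1 bp or more were merged with Python 3.11.15 and pandas 2.3.3, PETs were summed per pair of regions, and pairs within a region were dropped. PETs were drawn without replacement to 552029 per library (numpy 2.4.6, seed 1), while each q-value stayed that of the full library. Gained means 10 or more partners in the first library and under 10 in the second, lost the reverse. Intervals of PET ratios are exact conditional binomial 95% intervals (scipy 1.17.1) and cover counting error only, as PCR copies are not separate molecules. Named regions are the 5 with most partners per library as deposited, the 5 largest gains and losses per comparison, and the 5 hubs with the highest lowest number over the libraries as deposited. Ties among gains and losses were ordered by the difference in PETs per 1000000. The PET ratios and intervals of these regions are thus not free of the choice. Hub rule, comparisons and alternatives were chosen with earlier results of these data known. Scripts were tested on simulated data.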

Additional observations from a re-analysis of the deposited data

How the results depend on the processing

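No paired analysis was possible because each group has 1 library. With 3 PETs per link there were 5550 hub regions in 2571 loci, 819 gained and 668 lost in shcontrol over control, 378 and 384 in shMETTL3 over shcontrol, and 366 and 445 in shMETTL14 over shcontrol. With 6 PETs these were 1241 in 786 loci, 163 and 99, 96 and 74, and 53 and 90. With 8 partners they were 4838 hub regions, 733 and 555, 351 and 327 in shMETTL3, and 330 and 397 in shMETTL14. A false discovery rate of 0.01 left 1279 hub regions in 834 loci, 195 gained and 275 lost in shcontrol over control, 103 and 83 in shMETTL3, and 89 and 105 in shMETTL14. PETs as deposited gave 236 and 1528, 314 gained in shMETTL3, and 1151 and 36 in shMETTL14. The excess of gained over lost hubs in shcontrol over control therefore turned at a false discovery rate of 0.01 and without thinning, and that of lost over gained in shMETTL3 turned at 6 PETs, at 8 partners, at the false discovery rate and without thinning. In shMETTL14 it turned without thinning only. The false discovery rates are those of the full libraries, so that setting did not hold depth equal. The cause of the turns was not tested, beyond depth in the setting without thinning. Partners with anchors of both sets left 295 gained and 148 lost hubs in shcontrol over control. The named chromosome 20 gain and chromosome 12 loss without anchors of the other set went to a difference of 0. The named gain on chromosome 12 went from 23 to 15 partners, and that on chromosome 6 from 26 to 17. The gains on chromosomes 4 and 8 went from 26 to 18 and from 23 to 17. Among the losses, chromosome 11 went from -18 to -10, chromosome 15 from -16 to -11 and chromosome 4 from -15 to -11. The chromosome 6 loss stayed at -14. Differences in partners of named regions, checked 220 times, moved by more than 1.5-fold 49 times and reversed in 0. The checks with 8 partners could not move, because that setting leaves partner numbers unchanged. These regions were chosen for their large differences, so a reversal was unlikely from the start. Settings added after the data had been seen were equal PETs, with 1327 hub regions, and near covered length, with 207 gained and 52 lost. Over all settings, counts of hubs and loci moved by more than 1.5-fold in 38 of 66 checks. The median width of hub regions, 13.4 kb, went from 11.2 kb with 3 PETs per link to 18.0 kb at a false discovery rate of 0.01.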
